A study of Mus musculus with 4 samples.

Results

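The polyamine synthesis genes were taken as 8 named members: Odc1, Amd1, Amd2, Smox, Srm, Azin1, Oaz1 and Oaz2. A member was every row of a sample's values whose symbol equalled the name. A row was found for 6 of the 8 among 20340 gene labels with a value in all samples, 1 row for each of these 6, and Amd2 and Oaz2 were not analysed here. The samples were tibialis anterior (TA) muscles, a muscle of the lower leg (muscle in the labels, TA in the methods), from C57BL/6 mice aged 3 months (Young 1 and Young 2) or 20 months (Old 1 and Old 2), measured by mRNA-seq. No transgene, drug or deletion is given for either age. The labels name a TruSeq RNA kit and the study's methods a stranded one, the design text speaks of triplicates while 2 samples per age were analysed, and while the study calls its sequencing runs independent experiments and its methods speak in general of independent mice in each group, no source ties the samples of one age to separate animals. P-values therefore concern only these samples, and if the samples of one age were 1 library, n would be 1 per age with no replicate check.

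Polyamines (putrescine, spermidine and spermine) are small positively charged molecules that bind nucleic acids and are needed for growth and protein synthesis. Ornithine decarboxylase, the product of Odc1, makes putrescine, S-adenosylmethionine decarboxylase, from Amd1 and Amd2, makes the donor of the aminopropyl groups, and spermidine synthase, from Srm, joins both products. Spermine oxidase, from Smox, runs in the other direction and turns spermine back into spermidine. Antizymes, from Oaz1 and Oaz2, bind ornithine decarboxylase and deliver it to the proteasome, and the antizyme inhibitor, from Azin1, resembles the enzyme without its activity and takes up antizyme. In skeletal muscle the pathway is known as a target of androgens.

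Some sequences show what the Amd1 value covers and which steps of this pathway lie outside an mRNA measurement. The coding sequences of Amd1 and Amd2 in GENCODE M21 (GRCm38, mm10) each had 1002 bases and differed at 1 base, G796C, with positions counted from 1 at the A of the start codon and the Amd1 base given first. Bases 766 to 825 of both are shown from the minus strand, at chr10:40290157-40290216 for Amd1 and chr10:35710735-35710794 for Amd2, with the differing base in capitals.
Amd1: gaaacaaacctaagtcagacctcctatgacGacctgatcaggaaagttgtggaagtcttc
Amd2: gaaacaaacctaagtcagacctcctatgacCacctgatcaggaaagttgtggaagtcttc
Of the 3155 windows of 50 bases in the Amd1 transcript, 86.1% also occurred in an Amd2 transcript, so that most reads of that length from either gene cannot be assigned by sequence. The value of the Amd1 row is therefore uncertain as a measure of Amd1 alone.

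Both Amd transcripts carry the same short open reading frame before the coding sequence, known to mediate repression of translation by polyamines. It is shown with its start and stop codons in capitals, at chr10:40302155-40302175 for Amd1 and chr10:35711860-35711880 for Amd2.
Amd1: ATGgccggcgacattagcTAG
Amd2: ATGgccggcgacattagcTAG
This frame held 6 codons before its stop, and 296 bases in Amd1 and 300 in Amd2 lay between that stop and the coding start. The Oaz1 mRNA is known for a frameshift that ribosomes must make, at a rate set by polyamines, to read the antizyme protein. Its first stop in the frame of the start codon came after 68 codons, and it is shown on the plus strand at chr10:80828268-80828327, with the last codon before the stop and the stop itself in capitals.
Oaz1: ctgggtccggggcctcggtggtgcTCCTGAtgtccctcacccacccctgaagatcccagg
mRNA-seq measures the amount of these transcripts and reads neither step of translation.

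In RefSeq (GRCm38), the other members with a row lie at chr12:17544808-17551502 (Odc1), chr4:148591513-148594619 (Srm), chr15:38487430-38519294 (Azin1) and chr10:80826656-80829290 (Oaz1), and Amd1 lies at chr10:40287458-40302188. Sharing of sequence was also counted for the other members. In the same windows, 53.9% of the Oaz1 transcript recurred in the pseudogene Oaz1-ps, and 42.2% of the Odc1 transcript recurred in 16 other annotated genes, so both values may include or lack reads of such copies. The shares were 6.43% for Azin1 and 2.40% for Srm, and no window of Smox recurred in another gene.

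Samples of one age differed in scale. Values were FPKM, fragments scaled by the length of a transcript and the number mapped per sample. They summed to 698130 in Old 1 and 739302 in Young 2, but to 226747 in Old 2 and 251294 in Young 1. Since FPKM values hold no counts, depth is unknown and counting error could not be given. Each sample was therefore also scaled to the same median over genes with at least 1 FPKM in all samples, with factors of 0.683 for Old 1, 0.681 for Young 2, 1.47 for Old 2 and 1.46 for Young 1. After this scaling, the robust SD of the log2 ratio over 9293 genes was 0.23 for Old 1 to Old 2 and 0.22 for Young 2 to Young 1, against 0.42 for Old 1 to Young 2 and 0.46 for Old 2 to Young 1. Old samples are compared below with the young sample of like scale, Old 1 with Young 2 and Old 2 with Young 1, in what are called crossed pairs. Among genes with a mean scaled FPKM within 1.5-fold of Odc1, the robust SD was 0.05 within either age and 0.40 in either crossed pair. Near Srm it was 0.17 within either age, and 0.43 and 0.45 in the crossed pairs. Whether the 2 crossed pairs are separate checks was not tested.

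Both old samples lay on one side of both young samples after scaling for 5 of the 6 members, all but Smox, and for 56.0% of all tested genes. In the crossed pairs, Amd1 was 1.63-fold and 1.55-fold higher in old muscles and Azin1 was at 0.487-fold and 0.492-fold of young. Srm was at 0.694-fold and 0.634-fold, Odc1 at 0.791-fold and 0.778-fold, and Oaz1 at 1.19-fold and 1.17-fold. None of these differences passed the test on values as deposited (limma on log2(FPKM + 1), adjusted p = 1.00 for each). That fit of 4 samples had 20532 degrees of freedom, so its standard errors came from all genes and not from each member's own spread. As deposited, samples of one age lay about as far apart as the ages for Azin1. For Amd1, Srm, Odc1 and Oaz1 they lay farther apart than the ages. Ratios of 2 members within a sample cancel a scale factor shared by all genes. For 5 of 6 ratios the ages did not overlap, against 58.3% of all pairs of tested genes above 0 in every sample.

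Odc1, which encodes the first enzyme of the pathway, had 32.5 FPKM in Old 1 and 16.7 in Old 2, against 21.4 in Young 1 and 41.1 in Young 2. The lower and the higher sample of each age interleaved, so the ages overlapped as deposited. After scaling the values were 22.2 and 24.6 in old and 31.3 and 28.0 in young muscles, and the ages no longer overlapped. The old values were 0.791-fold and 0.778-fold of young in the crossed pairs, and 78.1% and 76.1% of genes had a larger ratio. The log2 difference, old minus young, was -0.34 ± 0.93 (SE, n = 2 per age; limma adjusted p = 1.00), and -0.33 ± 0.096 after scaling (limma adjusted p = 0.117).

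Amd1 had 125 FPKM in Old 1 and 61.7 in Old 2, against 39.8 in Young 1 and 76.3 in Young 2. Old 1 was the highest and Young 1 the lowest, with Old 2 below Young 2. After scaling, 85.0 and 91.0 in old muscles stood above 58.1 and 52.0 in young muscles. Of all genes, 6.25% had a larger ratio than Amd1 in Old 1 to Young 2 and 8.38% in Old 2 to Young 1. The log2 difference was 0.66 ± 0.96 (SE, n = 2 per age; limma adjusted p = 1.00), and 0.67 ± 0.091 after scaling (limma adjusted p = 0.0398).

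Srm, the gene of spermidine synthase, was the lowest member in every sample. It had 6.31 FPKM in Old 1 and 2.41 in Old 2, against 3.81 in Young 1 and 9.10 in Young 2. After scaling, both old values (4.31 and 3.56) were below both young values (5.55 and 6.20). The old values were 0.694-fold and 0.634-fold of young in the crossed pairs. The log2 difference was -0.48 ± 0.98 as deposited (SE, n = 2 per age; limma adjusted p = 1.00) and -0.48 ± 0.11 after scaling (limma adjusted p = 0.0783), and log2(FPKM + 1) understates the change of a gene at this level.

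**Figure D1:**
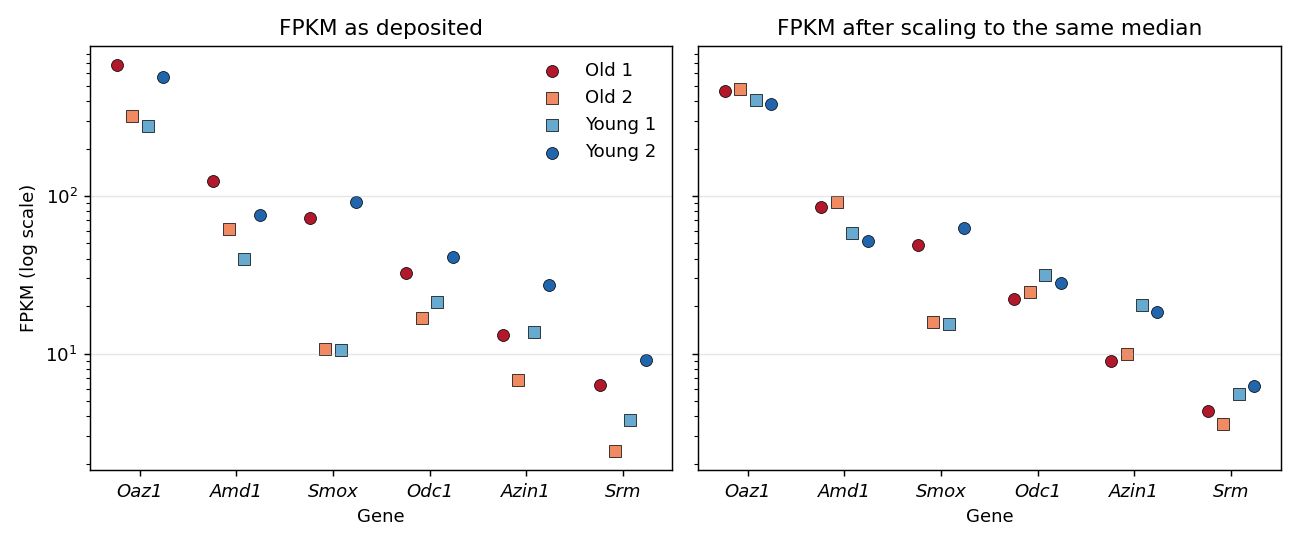
FPKM of the 6 members in each sample on a log axis, as deposited (left) and after scaling each sample to the same median (right); each point is 1 sample, with circles for Old 1 and Young 2 and squares for Old 2 and Young 1. Scaling brings samples of one age together for every member except Smox, whose circles stay above its squares at both ages.

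Oaz1 and Azin1 act on ornithine decarboxylase from opposite sides, and their values differed between the ages in opposite directions. Oaz1 was the highest member, with 69.7% to 76.7% of the summed FPKM of the members and a rank of 104 to 164 among all gene labels. It had 676 FPKM in Old 1 and 324 in Old 2, against 277 in Young 1 and 566 in Young 2. As deposited the ages overlapped, while after scaling 462 and 477 in old muscles stood above 405 and 385 in young muscles. The crossed pairs gave 1.19-fold and 1.17-fold, and 26.3% and 28.8% of genes had a larger ratio. The log2 difference was 0.24 ± 1.12 (SE, n = 2 per age; limma adjusted p = 1.00), and 0.25 ± 0.071 after scaling (limma adjusted p = 0.112). The Oaz1 row shared its locus with 1 other row.

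Azin1 had 13.2 FPKM in Old 1 and 6.80 in Old 2, against 13.8 in Young 1 and 27.1 in Young 2. Both old samples lay below both young samples as deposited, although Old 1 and Young 1 were close. Azin1 was the only member of the 6 whose ages did not overlap as deposited, as was the case for 3.54% of all tested genes. After scaling, 9.0 and 10 in old muscles were about 2-fold below 20.2 and 18.4 in young muscles. In the crossed pairs, 97.6% and 94.8% of genes had a larger ratio than Azin1. The log2 difference was -0.96 ± 0.94 (SE, n = 2 per age; limma adjusted p = 1.00), and -0.95 ± 0.086 after scaling (limma adjusted p = 0.0275).

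Smox, the gene of spermine oxidase, did not follow the other members. It had 72.1 FPKM in Old 1 and 10.7 in Old 2, against 10.5 in Young 1 and 92.0 in Young 2. The samples fell into a high and a low one at each age, 6.73-fold apart in old and 8.75-fold apart in young muscles, while the other members differed by 1.92-fold to 2.62-fold between samples of one age. Scaling did not bring them together, with 49.2 and 15.8 in old and 15.4 and 62.7 in young muscles. The crossed pairs gave 0.784-fold and 1.02-fold. After scaling, the 95% interval of the log2 difference ran from -3.03 to 2.73 (limma adjusted p = 0.989), so no difference of Smox between the ages was detectable, and a large one in either direction is within the interval.

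The locus listed for Smox was not its own. RefSeq places Smox at chr2:131491858-131525183 (GRCm38), with 9 curated transcripts, whereas the listed locus held 13 rows, that of Smox and 12 others. Of the 10 other rows there above 1 FPKM in Old 1, 9 were at 0 in Old 2. Of the 10 above 1 FPKM in Young 2, 8 were at 0 in Young 1. The same held across the series, since values of 0 in the samples with the lower sums were more common the more rows shared a locus. Among rows above 3 FPKM in Old 1, 0.882% of those alone at their locus and 87.5% of those at loci of 10 or more rows were at 0 in Old 2. The part of the shared locus in the Smox values was not tested.

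**Figure D2:**
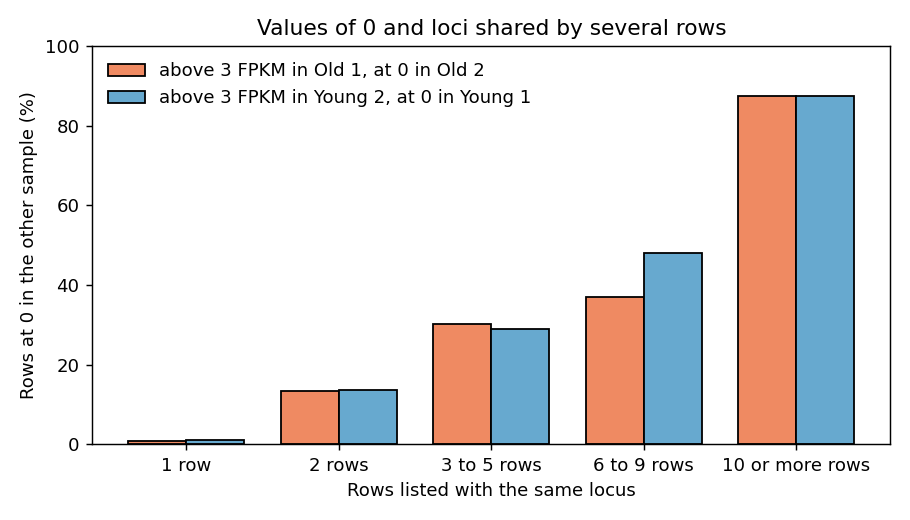
Share of rows listed at 0 (percent, vertical axis) by the number of rows listed with the same locus, for rows above 3 FPKM in Old 1 that were at 0 in Old 2, and for rows above 3 FPKM in Young 2 that were at 0 in Young 1. The share climbs from 0.882% and 0.954% at loci with 1 row to 87.5% in both ages at loci with 10 or more rows, the class that holds Smox.

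By level, Oaz1 was first and Srm last in every sample. Amd1 came before Odc1, and Odc1 before Azin1, in all 4 samples as well. Only the place of Smox varied, from the second in Young 2 to the fifth in Young 1. Among the other 5, the smallest step between neighbours on the FPKM scale was that of Odc1 over Azin1 in young muscles, at 1.55-fold and 1.52-fold. Over the 4 samples the deposited ranges of Amd1 and Odc1, of Odc1 and Azin1 and of Azin1 and Srm overlapped. After scaling those 5 ranges were apart, while that of Smox still overlapped those of Amd1, Odc1 and Azin1.

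As deposited, 0 of the 6 members passed the test, against 31 of 10266 tested genes (0.302%), and at an unadjusted p under 0.05 by limma the numbers were 0 members, 35 genes higher and 42 genes lower. After scaling, Amd1 passed as higher in old muscles and Azin1 as lower, 1 member of 6 in each direction, where 5.06% of all tested genes were called higher and 7.50% lower. Odc1, Srm, Oaz1 and Smox did not pass. These calls were not stable: on scaled values Amd1 no longer passed whichever sample was left out, Azin1 passed only without Old 1 or without Young 2, and neither passed with the replicate number as a block (limma adjusted p = 0.278 and 0.194). The ages did not overlap for 5 of the 6 members after scaling, against 56.0% of all tested genes. With 2 samples per age, the smallest two-sided p of an exact permutation test is 0.333, which was the value for each of these 5 members.

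**Figure D3:**
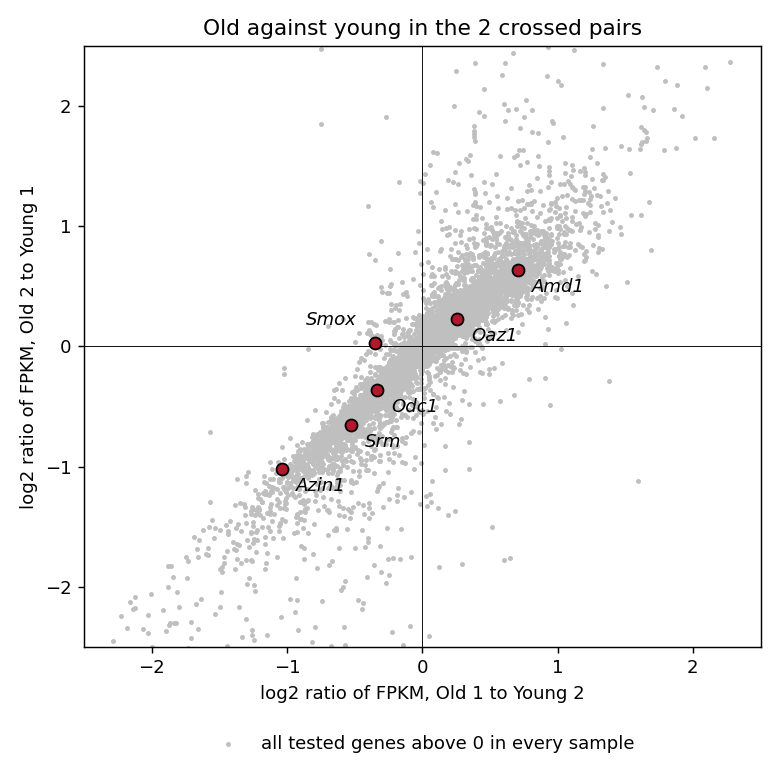
Log2 ratio of FPKM, old to young, in Old 1 to Young 2 (horizontal axis) and in Old 2 to Young 1 (vertical axis) for 9293 tested genes above 0 in every sample (grey) and the 6 members (red); 110 genes lie beyond the axes. Azin1 lies toward the low end of the cloud and Amd1 toward the high end, while Smox lies off the diagonal.

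Ratios within a sample were compared because a factor shared by all genes of a sample cancels in them. A factor that depends on level does not cancel. Genes with a mean scaled FPKM within 1.5-fold of Amd1 had a median log2 ratio of -0.13 for Old 1 to Old 2 after scaling. For genes that near to Srm it was 0.00. Young 2 to Young 1 gave -0.14 and -0.01. The ratio of Odc1 to its antizyme Oaz1 was 0.0480 in Old 1 and 0.0515 in Old 2, against 0.0774 in Young 1 and 0.0726 in Young 2. The old ratio was 0.664-fold of the young ratio, and the log2 gap within an age was at most 0.10 while the ages differed by -0.59. The ratio of Azin1, the inhibitor of antizyme, to Oaz1 was 0.0195 and 0.0210 in old and 0.0499 and 0.0478 in young muscles, 0.414-fold in old.

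The ratio of Odc1 to Azin1 was 2.46 and 2.45 in old and 1.55 and 1.52 in young muscles, 1.60-fold higher in old. Amd1 to Odc1, the decarboxylases of the 2 branches, was 3.83 and 3.70 in old and 1.86 in both young samples, 2.03-fold higher in old. Amd1 to Srm was 19.7 and 25.6 in old and 10.5 and 8.38 in young muscles, 2.40-fold higher in old. Each of these 5 ratios had both old samples on one side of both young samples (exact permutation p = 0.333, two-sided, the smallest possible), a pattern that 58.3% of all pairs of tested genes shared. Smox to Srm overlapped, with 11.4 and 4.44 in old and 2.76 and 10.1 in young muscles (exact permutation p = 0.667). The 6 ratios share genes and are not independent of each other, and with this number of samples no p adjusted over them could pass the threshold.

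**Figure D4:**
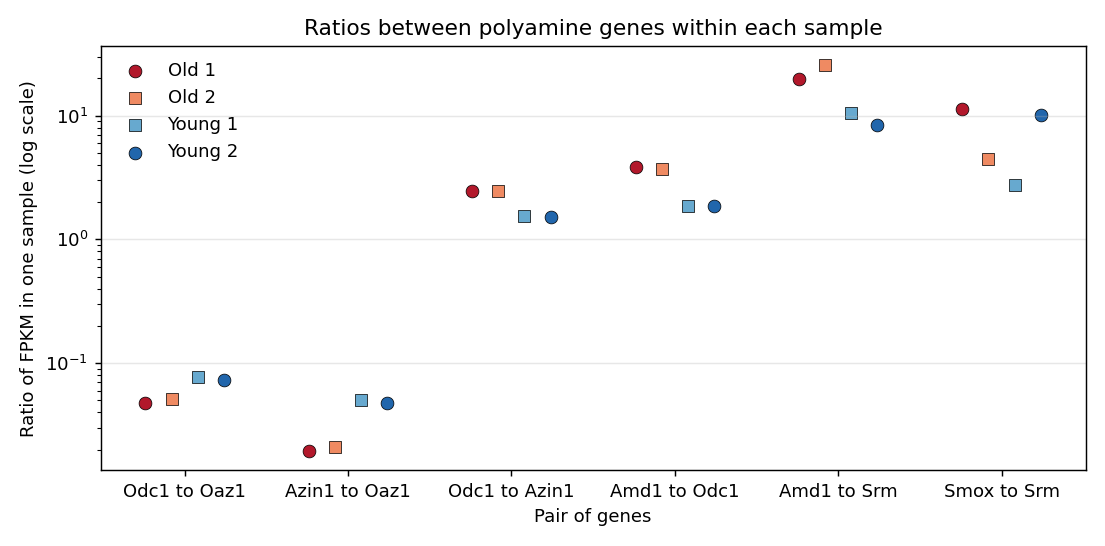
Ratio of the FPKM of 2 members within each sample (log axis) for 6 pairs of genes; each point is 1 sample. For 5 pairs the old samples sit together on one side of the young samples, such as 3.83 and 3.70 against 1.86 for Amd1 to Odc1, while the ages overlap for Smox to Srm.

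Many genes shared the pattern of Odc1 over the 4 samples. By the distance between centred log2(FPKM + 1) values after scaling, Sema6c, Dap3 and Dot1l were nearest to Odc1, and 433 tested genes lay within a distance of 0.1. For Amd1 the nearest were Rab2a, Atg4a and Etl4, with 91 genes within that distance. Rab2a, for example, had 196 FPKM in Old 1 and 96.2 in Old 2, against 63.6 in Young 1 and 123 in Young 2. For Smox 6 genes lay within that distance, and the nearest 3 (the rows without a symbol XLOC_001375 and XLOC_010008, and 6230400D17Rik) were each listed at 0 in Old 2 and Young 1. These likenesses rest on 4 values per gene.

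The other genes of polyamine metabolism were taken from a list of 32, of which 26 had a value and 16 were tested. In the test on values as deposited 0 of the 16 passed, 4 were above 0 and 12 below, and their median log2 difference was -0.07 beside -0.01 for all tested genes. Leaving out 1 sample moved this median between -0.58 and 0.43. After scaling, 1 of the 16 passed as higher and 1 as lower, where 5.06% of all tested genes passed as higher and 7.50% as lower, and the median was -0.06. These 2 genes, Adi1 and Mat2a, are of the methionine group, which supplies and recovers the S-adenosylmethionine that Amd1 uses.

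Adi1, an enzyme of methionine salvage, had 65.2 FPKM in Old 1 and 33.8 in Old 2, against 19.4 in Young 1 and 38.2 in Young 2. It was 1.71-fold and 1.74-fold higher in old muscles in the crossed pairs (limma adjusted p = 1.00 as deposited and 0.0339 after scaling). Mat2a, which encodes the enzyme that makes S-adenosylmethionine outside the liver, had 89.7 FPKM in Old 1 and 44.8 in Old 2, against 66.5 in Young 1 and 137 in Young 2. The old values were 0.656-fold and 0.673-fold of young (limma adjusted p = 1.00 as deposited and 0.0369 after scaling). On scaled values Mat2a no longer passed whichever sample was left out, nor did it pass with quantile normalization (limma adjusted p = 0.0566), and of the samples left out Adi1 passed only without Young 2. Neither passed on scaled values with the replicate number as a block (limma adjusted p = 0.244 for Adi1 and 0.316 for Mat2a). Ahcy, which clears S-adenosylhomocysteine, was at 0.787-fold and 0.783-fold and did not pass after scaling (limma adjusted p = 0.119). Mat2b, Mtap, Apip and Enoph1, of the same group, lay between 0.931-fold and 1.02-fold in both crossed pairs.

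Spermidine is used to make hypusine on the translation factor eIF5A. Dohh, the enzyme of the last step of this modification, was at 0.751-fold and 0.734-fold of young in the crossed pairs (limma adjusted p = 0.0883 after scaling). Eif5a itself had 379 FPKM in Old 1 and 187 in Old 2, against 213 in Young 1 and 427 in Young 2, or 0.887-fold and 0.879-fold. Among transport genes, Atp13a2, a lysosomal polyamine exporter, was at 0.878-fold and 0.860-fold, and Slc3a2 at 0.847-fold and 0.839-fold. Atp13a3 had 14.7 FPKM in Old 1 and 13.6 in Young 2 but 0.0794 in Old 2 and 0.656 in Young 1, so its crossed pairs disagreed, at 1.08-fold and 0.121-fold. None of these passed in either form.

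Of the catabolic genes, Sat2 had 4.50 FPKM in Old 1 and 1.28 in Old 2, against 0.984 in Young 1 and 3.96 in Young 2, and the polyamine oxidase Paox was at 0.971-fold and 1.02-fold in the crossed pairs. No gene of arginine and ornithine supply reached the filter of 1 FPKM in at least 2 samples. The arginases Arg1 and Arg2 were listed at 0 in Old 2 and Young 1, and were at most 0.873 FPKM elsewhere. Sms, Sat1, Oat, Slc7a2, Mri1 and Dhps were not analysed here.

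**Figure D5:**
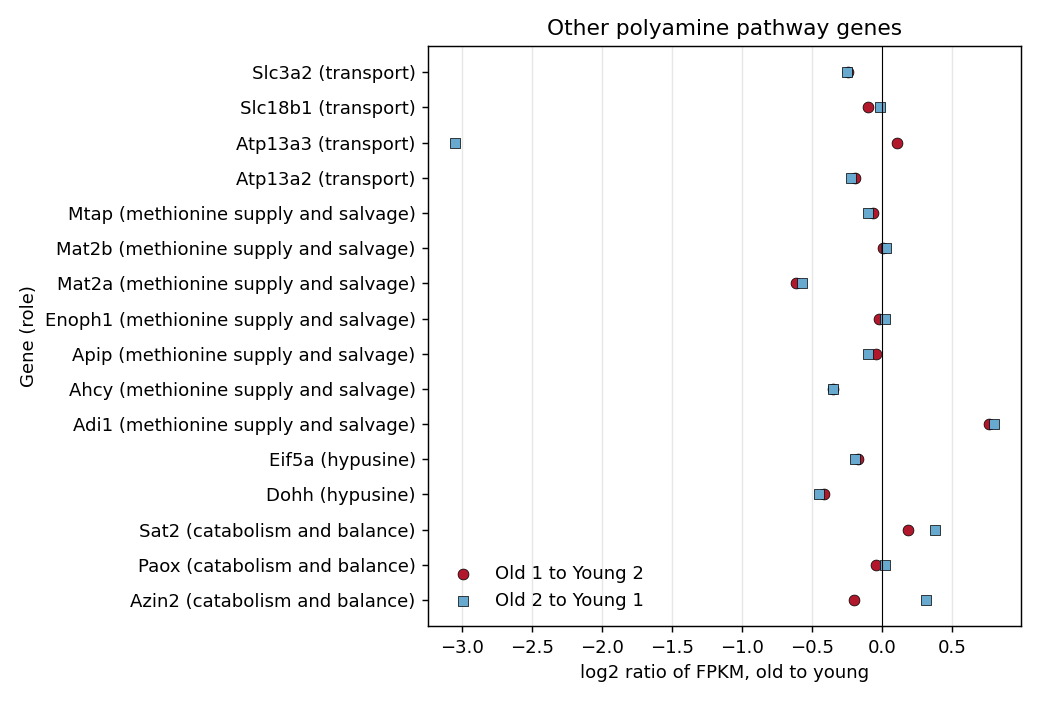
Log2 ratio of FPKM, old to young, in Old 1 to Young 2 (circles) and Old 2 to Young 1 (squares) for the 16 tested genes of the list, ordered by role. Adi1 lies to the right and Mat2a to the left of 0 in both pairs, and the crossed pairs of Atp13a3 lie far apart.

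Markers of fiber type and of other cells also differed between the ages, and in whole muscle fewer cells of a type and less RNA per cell cannot be told apart. The summed scaled FPKM of the 6 of 7 slow-fiber markers with a value was 876 and 680 in old and 52.4 and 60.6 in young muscles, and all 6 passed as higher after scaling (5 as deposited). Of 5 red blood cell markers, the hemoglobin genes Hba-a1 and Hba-a2 had values, listed together, which summed to 415 and 409 in old and 57.6 and 60.4 in young muscles and passed as higher after scaling. Fibroblast markers summed to 122 and 136 in old and 193 and 178 in young muscles. After scaling 3 of these 6 passed as lower, while 2 had a log2 difference above 0. Macrophage markers summed to 15.0 and 12.7 against 21.4 and 24.3 (2 of 5 lower). Schwann cell markers summed to 30.6 and 31.0 against 47.2 and 45.0 (2 of 3 lower), and endothelial markers to 46.3 and 50.3 against 60.9 and 55.0. Of the 5 endothelial markers 1 passed as lower, while 2 had a log2 difference above 0. None of the tested markers of adipocytes (4) or satellite cells (2) passed. No marker of these lists was at 0 in any sample, whereas the fast-fiber markers Myh1, Myh4 and Tnnt3 were each at 0 in at least 1 sample. Fast-fiber markers summed to 15834 FPKM or more as deposited. After scaling they summed to 73490 and 23339 in old and 30694 and 59594 in young muscles, so the ages overlapped. Of the 8 tested, 1 passed as higher and 1 as lower after scaling. The part of these cells in the values of Amd1, Azin1 and the other members was not tested.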

How the data were processed

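TA muscle mRNA was sequenced in 4 samples, and after trimming and removal of PCR duplicates the authors aligned the reads to mm10 with TopHat2 (2.0.10, per the submitters' processing notes, which also name Cuffdiff 2.1.1), using RefSeq genes as a guide, and ran Cufflinks per sample. The deposited values are FPKM per locus. The 1 incomplete line ending each sample's values was left out, and 542 rows without a value in all samples were not tested. Rows of one symbol were summed. log2(FPKM + 1) was compared in R 4.3.3 by limma 3.58.1 (lmFit, then trended eBayes, two-sided, Benjamini-Hochberg adjustment over the genes that reached 1 FPKM in 2 or more samples, adjusted p under 0.05), with old and young taken from the sample labels. Single values and ratios were compared with an exact permutation test. Recovery of whole reads from the values was not tested.

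The members, gene lists, median scaling and the crossed pairs were chosen with earlier results of these data known. Named genes were all members, at most 8 tested pathway genes in order of the absolute mean log2 ratio over the crossed pairs, and for Odc1, Amd1 and Smox the 3 nearest genes by Euclidean distance. Eif5a, Paox, Rab2a and further pathway genes were named after their values were seen. Azin2 and Slc18b1 were matched by older symbols. Sequences come from GENCODE M21, and positions of whole genes from RefSeq. Python 3.11.15, pandas 2.3.3, numpy 2.4.6 and matplotlib 3.10.9 were used. Alternatives were a pseudocount of 0.1, other filters, median scaling, quantile normalization, the replicate number or the crossed pairs as a block, the highest row per symbol, limma without the trend and leaving out each sample.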

Additional observations from a re-analysis of the deposited data

How the results depend on the processing

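The counts of genes called higher and lower in old muscles (18 and 13) went to 4 and 2 with at least 1 FPKM required in all samples, 519 and 770 with median scaling, and 119 and 188 with quantile normalization. Leaving out 1 sample gave 2 to 6 higher and 3 to 10 lower, and with median scaling 1 to 348 and 2 to 452 (1 and 10 without Young 1, 3 and 2 without Old 2, 137 and 237 without Old 1, 348 and 452 without Young 2), where the lone sample of an age is assumed to vary like the others. Same-numbered deviations from the age means had r = -0.885 over genes on values as deposited. With 2 samples per age this r carries the difference in scale, so it cannot tell whether equal replicate numbers mark a pair. With the replicate number as a block the counts were 2 and 3. With median scaling and this block they were 23 and 20, and no member passed (limma adjusted p = 0.278 for Amd1 and 0.194 for Azin1). The crossed pairs as a block gave 2812 and 3374 of 10266 tested genes, with a median standard error of 0.03 against 0.98 without a block. There Odc1 (-0.34), Amd1 (0.66), Srm (-0.48), Azin1 (-0.96) and Oaz1 (0.24) passed, but not Smox. These pairs were formed by the scale of the same samples, so the block takes that scale out by its making. Its calls of members and of pathway genes are therefore no independent check. Quantile normalization also called Amd1 (0.68, limma adjusted p = 0.0496) and Azin1 (-0.94, limma adjusted p = 0.0465), as median scaling did (0.67 and -0.95). With median scaling and 1 sample left out, Azin1 lay between -1.02 and -0.88 and passed only without Old 1 (-0.88, limma adjusted p = 0.0460) or Young 2 (-1.01, limma adjusted p = 0.00788), and Amd1 lay between 0.59 and 0.75 and did not pass. As deposited, leaving out 1 sample moved Odc1 between -0.80 and 0.12, Amd1 between 0.16 and 1.16, Smox between -1.67 and 1.34, Srm between -1.03 and 0.07, Azin1 between -1.42 and -0.50 and Oaz1 between -0.29 and 0.77, so the sign turned for Odc1, Smox, Srm and Oaz1. After scaling, the sign of a member turned only for Smox (-1.13 to 0.83, with 0.64 without Old 2). Among pathway genes, called counts went from 0 to 1 higher and 1 lower with median scaling, 1 higher with quantile normalization, 2 higher and 6 lower under the crossed block, and 0 to 1 higher with median scaling and 1 sample left out. Leaving out 1 sample turned the sign of their median difference (-0.58 to 0.43, and -0.13 to -0.07 scaled, where it kept its sign) and the sign for Atp13a3 (-2.19 to 1.68, and -2.0 to 1.30 scaled), Dohh (-0.88 to 0.05), Ahcy (-0.78 to 0.12), Sat2 (-0.49 to 0.84, and -0.11 and -0.06 among the values up to 0.49 scaled), Slc3a2 (-0.68 to 0.22) and Atp13a2 (-0.61 to 0.25). Of the ratios within a sample, adding a pseudocount of 1 moved Azin1 to Oaz1 to -1.20 and Odc1 to Azin1 to 0.62 (log2, old minus young), and leaving out 1 sample moved Smox to Srm between -0.51 and 1.37. The other 5 ratios kept their sign without any 1 sample. The cause of these changes was not tested, and the unknown depth leaves the precision of low values such as Srm open to no estimate.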
